A study of Rattus norvegicus with 16 samples.

Results

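Endothelial cells line blood and lymphatic vessels, and 10 genes that mark them were followed here in the rat ventral prostate: Pecam1, Cdh5, Kdr, Flt1, Tek, Tie1, Plvap, Vwf, Emcn and Eng. The genes were taken by symbol from the deposited tables of read counts, and the set was chosen with earlier results of these data known. The PND540 table lists all 10 among its 24218 entries. The PND21 table lists 9 among its 28688 entries, and Pecam1 has no row in it.

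Messenger RNA had been sequenced from ventral prostates of 16 rats. GLLP offspring came from dams on a diet of 6% protein through gestation and lactation, and CTR offspring from dams on the normal diet of 17% protein. Glands were taken at postnatal day (PND) 540 from 4 GLLP and 5 CTR offspring, and at PND 21 from 3 GLLP and 4 CTR offspring. The labels name no other treatment, and neither strain nor litter. Samples of a group may therefore share a dam, and p-values rest on the spread from sample to sample.

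New vessels are built and kept by a pair of receptor systems on the endothelial surface. Vascular endothelial growth factor binds Kdr (VEGF receptor 2), which drives growth and permeability, and Flt1 (VEGF receptor 1), which binds the same ligand tightly and restrains that signal. Angiopoietins bind Tek (Tie2), a receptor that keeps vessels quiescent and stable together with its partner Tie1. Cdh5 (VE-cadherin) and Pecam1 hold neighbouring endothelial cells together, Emcn is a mucin-like surface protein of capillaries and veins, Plvap forms the diaphragms of fenestrae and caveolae, Eng is a co-receptor for BMP and TGF-beta ligands, and Vwf is the clotting protein stored in endothelial granules. The ventral prostate depends on androgens, and its capillary bed grows and shrinks with them.

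Promoter sequences were at hand for 6 of the 10 genes from RefSeq on build GRCr8, with no entry used for Pecam1, Cdh5, Tek or Vwf. The 250 bases before the annotated start are shown for the 4 of these 6 genes that were lower at PND540 in at least 1 diet group, because they show whether these genes share a short element. Capitals mark GGAA or its reverse complement TTCC, the core bound by ETS factors, a family to which the endothelial regulators Erg and Fli1 belong. The bases run 5′ to 3′ on the strand of the gene.
Kdr, chr14:32571813-32572062, plus strand: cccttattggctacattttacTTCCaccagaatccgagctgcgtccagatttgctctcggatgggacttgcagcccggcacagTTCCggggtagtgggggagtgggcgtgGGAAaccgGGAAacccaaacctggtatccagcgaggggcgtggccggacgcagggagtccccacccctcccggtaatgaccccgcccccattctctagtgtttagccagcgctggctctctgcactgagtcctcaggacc
Tie1, chr5:137304982-137305231, minus strand: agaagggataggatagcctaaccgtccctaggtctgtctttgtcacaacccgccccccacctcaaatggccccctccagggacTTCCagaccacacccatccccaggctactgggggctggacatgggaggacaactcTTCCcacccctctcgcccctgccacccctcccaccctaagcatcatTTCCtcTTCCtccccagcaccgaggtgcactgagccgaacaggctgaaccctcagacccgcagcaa
Emcn, chr2:228564289-228564538, plus strand: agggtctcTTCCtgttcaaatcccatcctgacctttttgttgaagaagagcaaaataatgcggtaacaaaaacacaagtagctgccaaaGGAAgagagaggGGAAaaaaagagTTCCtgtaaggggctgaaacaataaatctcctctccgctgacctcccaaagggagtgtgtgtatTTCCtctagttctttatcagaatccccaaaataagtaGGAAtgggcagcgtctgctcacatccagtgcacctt
Eng, chr3:36332029-36332278, plus strand: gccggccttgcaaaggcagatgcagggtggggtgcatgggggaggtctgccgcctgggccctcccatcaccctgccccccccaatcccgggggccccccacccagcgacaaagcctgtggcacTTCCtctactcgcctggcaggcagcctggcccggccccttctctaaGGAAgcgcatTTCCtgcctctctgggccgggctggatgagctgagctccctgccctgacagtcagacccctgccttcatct

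The core occurred 4 times before Kdr, 4 times before Tie1, 6 times before Emcn and 3 times before Eng, counting both strands. It is a common tetramer: 93.2% of 33469 rat promoters of the same length held it, with a median of 3 matches. At least as many matches as before Emcn were found in 9.27% of promoters, and at least as many as before Eng in 55.5%. A GATA core (GATAA, both strands) was present in Emcn and absent from the windows of Kdr, Tie1 and Eng, against 23.5% of all promoters. These matches describe letters and not binding.

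Totals ran from 28748604 to 39161666 counts per library. Values are given as CPM, the count of a gene relative to the total of its library, scaled by TMM, a factor that corrects for the composition of each library. Each of the 10 genes was detected in every library of the tables that list it, with no fewer than 4 counts. CTR replicate 5 at PND540 was unlike the rest of its age. It correlated with them at a median of 0.851, while the lowest such value of any other PND540 library was 0.956, and in 70.7% of 14767 tested genes it was the highest or the lowest library. Counts of calls for age in CTR offspring, and the CTR values it moves most, are also given without it. For the vascular and cell marker genes, the shares, Cldn5 and the spread at PND540, this repeat was chosen after the values were seen. At PND21, GLLP replicate 4 was the highest or the lowest library in 53.9% of 14915 tested genes. The other libraries of that age were so in 16.7% to 33.4%. Its median correlation with them, 0.965, was the lowest at PND21. Neither the number of endothelial cells nor the RNA per cell was measured, and fewer cells and less RNA per cell cannot be told apart in whole glands.

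Cdh5, Kdr, Tie1 and Emcn were lower at PND540 than at PND21 in offspring of both diets. Tek passed the test in GLLP offspring and Eng in CTR offspring. Plvap and Flt1 did not pass in either, and Vwf went the other way without passing. In each diet group 5 of the 9 genes were called lower and none higher (edgeR quasi-likelihood test, Benjamini-Hochberg adjusted p under 0.05), while 17.1% of 13694 tested genes in GLLP and 13.2% of 13510 in CTR were called lower. The median log2 fold change of the 9 genes was -0.99 in GLLP offspring and -1.35 in CTR offspring, beside 0.02 and 0.07 over all genes tested. Only 19709 gene names occur in the tables of both ages. A difference in annotation or counting and the age cannot be told apart in any value that sets PND540 against PND21.

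In the paragraphs on age, CPM values are scaled over all 16 libraries, and each fold change comes from the fit of that diet group alone. VE-cadherin had the lowest fitted fold change of the 9 genes in both diet groups. Cdh5 stood at 12.9, 4.65, 9.35 and 12.7 CPM in the 4 GLLP libraries at PND540, against 51.5, 45.6 and 42.9 CPM in the 3 at PND21. In CTR offspring it stood at 3.77, 10.8, 9.74, 5.06 and 0.195 CPM at PND540, against 45.8, 44.5, 38.6 and 44.6 CPM at PND21. No PND540 library of either diet came near the PND21 range. Cdh5 was 4.75-fold lower in GLLP offspring (log2 fold change -2.25, SE 0.32, edgeR adjusted p = 0.000738) and 7.3-fold lower in CTR offspring (-2.87, SE 0.73, adjusted p = 0.0144). Without CTR replicate 5, which held 5 Cdh5 counts, the CTR value was -2.56 (adjusted p = 0.000117).

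**Figure D1:**
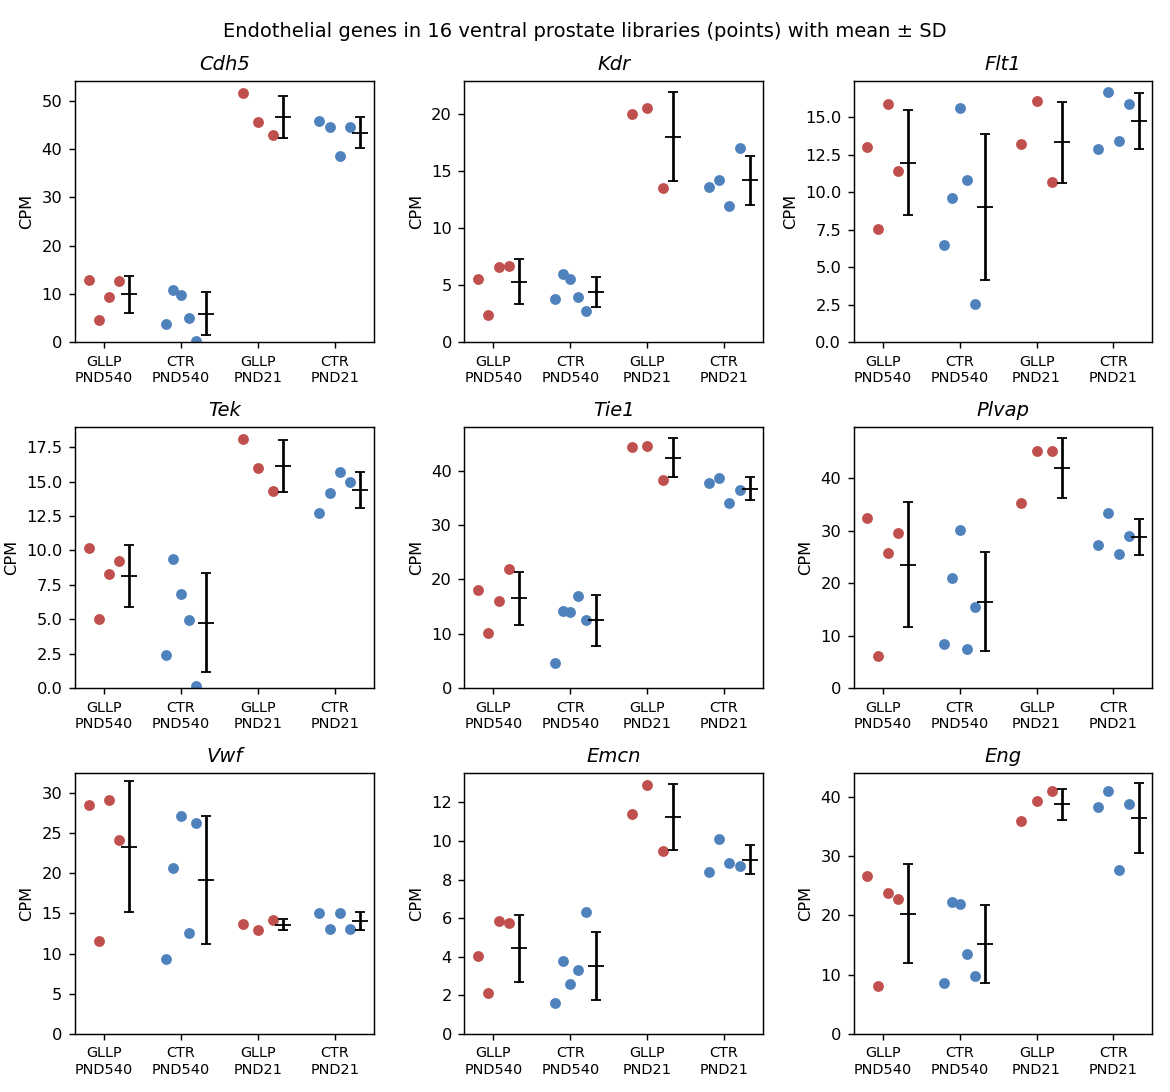
CPM of the 9 genes that both tables list, scaled over all 16 libraries, with GLLP (red) beside CTR (blue) at PND540 and then at PND21. Points are libraries and bars are the mean ± SD. Cdh5, Kdr, Tie1 and Emcn sit lower in every PND540 library of a diet than in every PND21 library of it, while Flt1 overlaps between the ages and Vwf lies above all PND21 libraries in 6 of the 9 PND540 libraries.

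Of the VEGF receptors, Kdr was called lower in both diets and Flt1 in neither, and the difference between the receptors was not tested. Kdr measured 5.57, 2.4, 6.61 and 6.64 CPM in GLLP libraries at PND540 and 20, 20.5 and 13.5 CPM in those at PND21. In CTR libraries it measured 3.77, 5.97, 5.55, 3.95 and 2.74 CPM at PND540 and 13.6, 14.2, 11.9 and 17 CPM at PND21. The ages did not overlap, and Kdr fell 3.41-fold in GLLP offspring (log2 fold change -1.77, SE 0.35, edgeR adjusted p = 0.00451) and 3.21-fold in CTR offspring (-1.68, SE 0.26, adjusted p = 0.00106). Flt1, its tighter-binding relative, measured 13, 7.55, 15.9 and 11.4 CPM in GLLP libraries at PND540 and 13.2, 16.1 and 10.7 CPM at PND21. Its CTR values were 6.45, 9.62, 15.6, 10.8 and 2.54 CPM at PND540 and 12.9, 16.7, 13.4 and 15.9 CPM at PND21. The ages overlapped in both diets, with log2 fold changes of -0.17 (SE 0.28) in GLLP and -0.7 (SE 0.42) in CTR and edgeR adjusted p of 0.679 and 0.235.

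The angiopoietin receptors were both lower in GLLP offspring. Tie1 stood at 18, 10.1, 16.1 and 21.9 CPM in GLLP at PND540 and at 44.4, 44.6 and 38.3 CPM at PND21, with no overlap. In CTR it stood at 4.61, 14.1, 14, 16.9 and 12.5 CPM at PND540 and at 37.8, 38.7, 34 and 36.4 CPM at PND21. Its log2 fold change was -1.37 in GLLP (SE 0.24, edgeR adjusted p = 0.00235) and -1.56 in CTR (SE 0.32, adjusted p = 0.00453). Tek stood at 10.2, 5.01, 8.27 and 9.21 CPM in GLLP at PND540 and at 18.1, 16 and 14.3 CPM at PND21, again with no overlap (log2 fold change -0.99, SE 0.27, adjusted p = 0.0183). That call was lost without GLLP replicate 2 at PND21 (adjusted p = 0.0635) and without GLLP replicate 3 at PND21 (0.058). In CTR offspring Tek was at 2.43, 9.39, 6.85, 4.91 and 0.156 CPM at PND540 and at 12.7, 14.2, 15.7 and 15 CPM at PND21. Every older library was lower, but the SE of 0.72 around -1.59 left an adjusted p of 0.128. The lowest of these values, in CTR replicate 5, rests on 4 counts, and without that library Tek was called (log2 fold change -1.28, edgeR adjusted p = 0.0117).

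Emcn was called lower in both diets. It read 4.03, 2.11, 5.84 and 5.72 CPM in GLLP at PND540 and 11.4, 12.9 and 9.47 CPM at PND21 (log2 fold change -1.36, SE 0.36, edgeR adjusted p = 0.0165). The CTR readings were 1.59, 3.79, 2.59, 3.33 and 6.33 CPM at PND540 and 8.38, 10.1, 8.87 and 8.71 CPM at PND21 (-1.35, SE 0.35, adjusted p = 0.0163). The ages did not overlap in either diet. The GLLP call was lost without GLLP replicate 3 at PND21 (adjusted p = 0.0658).

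Eng, the BMP and TGF-beta co-receptor, read 26.7, 8.12, 23.8 and 22.7 CPM in GLLP at PND540 and 35.9, 39.4 and 41 CPM at PND21. In CTR it read 8.55, 22.3, 21.9, 13.5 and 9.73 CPM at PND540 and 38.4, 41, 27.7 and 38.8 CPM at PND21. All older libraries lay below all younger ones in both diets, and the call was made in CTR (log2 fold change -1.26, SE 0.32, edgeR adjusted p = 0.0137) and not in GLLP (-0.94, SE 0.34, adjusted p = 0.0593). Plvap read 32.5, 6.12, 25.8 and 29.6 CPM in GLLP at PND540 and 35.3, 45.3 and 45.3 CPM at PND21 (-0.85, SE 0.45, adjusted p = 0.18). Its CTR readings were 8.29, 21, 30.2, 7.52 and 15.4 CPM at PND540 and 27.2, 33.4, 25.6 and 29 CPM at PND21 (-0.8, SE 0.39, adjusted p = 0.151). The older Plvap libraries spread over 5.31-fold in GLLP and 4.02-fold in CTR. Without CTR replicate 3 at PND540, the highest of its group, Plvap was called in CTR (-1.14, adjusted p = 0.0379).

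Vwf was the 1 gene of the 9 with positive values. It measured 28.5, 11.6, 29.1 and 24.1 CPM in GLLP at PND540 and 13.7, 12.9 and 14.2 CPM at PND21, so that 1 older library, replicate 2, lay below the younger ones. In CTR it measured 9.34, 20.7, 27.1, 12.6 and 26.3 CPM at PND540 and 15, 13.1, 15.1 and 13.1 CPM at PND21. The log2 fold change was 0.77 in GLLP (SE 0.3, edgeR adjusted p = 0.0776) and 0.45 in CTR (SE 0.32, adjusted p = 0.314). Without GLLP replicate 2 at PND540 Vwf was called higher in GLLP (0.99, edgeR adjusted p = 0.0034). Eng (-0.68, adjusted p = 0.0109) and Plvap (-0.53, adjusted p = 0.0489) were then called lower, which brought the calls in GLLP to 8 of 9. The library left out was the lowest of its group for Vwf, Eng and Plvap. Over all genes that fit called 2302 higher and 2159 lower, against 2611 and 2341 with all libraries. Without GLLP replicate 3 at PND21 the endothelial calls numbered 3, with 1796 genes called higher and 1638 lower.

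**Figure D2:**
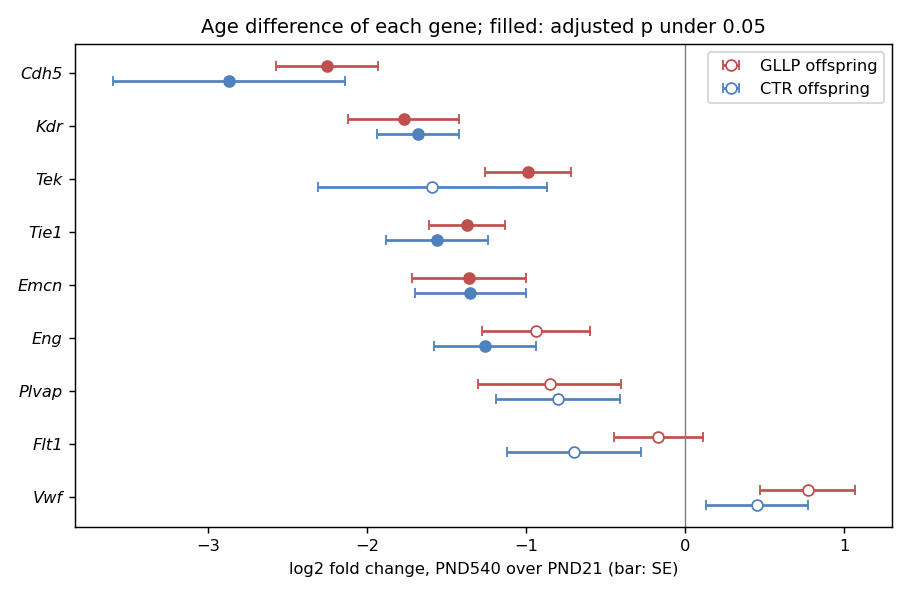
Fitted log2 fold change of PND540 over PND21 for each gene, GLLP (red, upper) and CTR (blue, lower), with bars of 1 SE. Filled points have an edgeR adjusted p under 0.05. Values run from Cdh5 at -2.25 in GLLP and -2.87 in CTR to Vwf at 0.77 in GLLP and 0.45 in CTR, and the diets share no library.

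In GLLP offspring 7 of the 9 genes had every PND540 library below every PND21 library, as did 22.2% of all tested genes. In CTR offspring 6 of 9 did, against 18.9% of all tested genes. Ordered by the mean of each group, 7 of the 9 genes ran from GLLP at PND21 through CTR at PND21 and GLLP at PND540 to CTR at PND540. Neighbours of equal age in this order did not pass the test for any gene. Flt1 was highest in CTR at PND21, and Vwf highest in GLLP at PND540.

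The makeup of the set differed between the ages. Cdh5 held 8% ± 0.96 of the summed counts of the 9 genes in GLLP at PND540 and 19.3% ± 1.66 at PND21 (SD, n = 4 and 3). In CTR it held 6.18% ± 3.46 at PND540 and 20.5% ± 0.817 at PND21 (SD, n = 5 and 4). Without CTR replicate 5 the CTR share at PND540 was 7.67% ± 1.15 (SD, n = 4). Vwf held 19.1% ± 1.75 in GLLP at PND540 and 5.64% ± 0.558 at PND21, and 21.5% ± 7.48 in CTR at PND540 and 6.69% ± 0.973 at PND21. The CTR share of Vwf at PND540 without CTR replicate 5 was 18.3% ± 1.88 (SD, n = 4). The PND540 and PND21 ranges of both genes were apart in both diets. Vwf counts per Tie1 count ran from 0.745 to 2.09 in the 9 PND540 libraries and from 0.289 to 0.442 in the 7 PND21 libraries. Such shares and ratios do not depend on the scaling of a library, but they do depend on the length counted for each gene, which the files do not state.

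**Figure D3:**
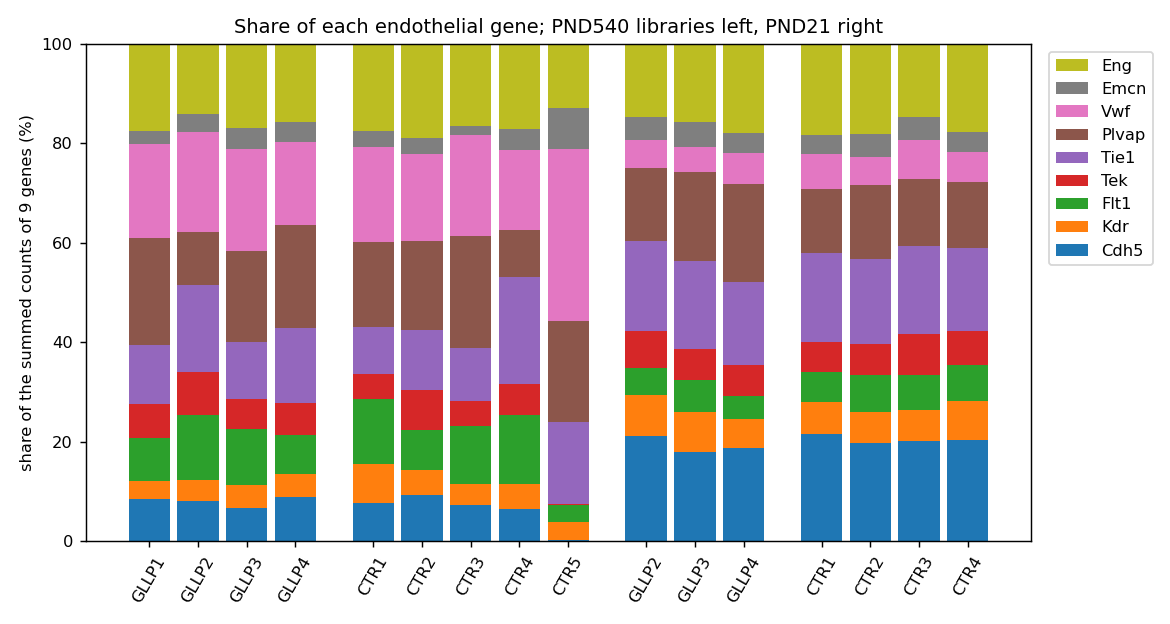
Share of each gene in the summed counts of the 9 genes, in percent, 1 bar for each library, with PND540 libraries left of PND21 libraries and GLLP left of CTR. The band of Vwf is wider and that of Cdh5 narrower at PND540, and CTR replicate 5 nearly lacks Cdh5 (0.257%) and Tek (0.206%).

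Genes that mark other cells of the gland also moved between the ages, some down and some up, and their part in these results was not tested. Of all genes tested, 17.1% were called lower in GLLP and 13.2% in CTR. Smooth muscle genes summed to 686 to 1740 CPM in GLLP at PND540 and 3810 to 4410 CPM at PND21, with 7 of 8 called lower. In CTR they summed to 576 to 1720 CPM at PND540 and 3490 to 4080 CPM at PND21, with 6 of 8 called lower. Fibroblast genes summed to 165 to 634 CPM and 73.8 to 473 CPM in GLLP and CTR at PND540, and to 5750 to 7220 CPM and 4010 to 5940 CPM in GLLP and CTR at PND21. Of these, 5 of 7 were called lower in GLLP and 3 of 7 in CTR, and 1, the collagen gene Col1a2, was called higher in each. Col1a2 had log2 fold changes of 6.06 in GLLP and 5.67 in CTR, while its partner chain Col1a1 had -5.53 and -5.61. Scaled over the libraries of the comparison, Col1a2 averaged only 0.086 CPM in GLLP and 0.0801 CPM in CTR at PND21. The reason was not tested, and annotation and age cannot be told apart in it. All 6 proliferation genes were called lower in both diets, and they summed to 4.4 to 10.4 CPM in GLLP and 4.18 to 15.8 CPM in CTR at PND540, against 157 to 304 CPM and 159 to 309 CPM at PND21. Skeletal muscle genes were called lower in 8 of 8 cases in GLLP (11.6 to 19.5 CPM at PND540, 467 to 733 CPM at PND21), while in CTR 1 of 7 was lower and 1 higher (13.1 to 49.1 CPM at PND540, 36.4 to 54.6 CPM at PND21).

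Tested marker genes of myeloid cells, T and B cells and fat all had values at or above 0 in both diets, with few calls in some lists. Of 7 tested myeloid genes 1 was called higher in GLLP, the complement gene C1qa, and 4 in CTR: Aif1, Cd68, C1qa and C1qb. They summed to 109 to 218 CPM in GLLP at PND540 and 105 to 133 CPM at PND21, and to 115 to 509 CPM in CTR at PND540 and 73.6 to 114 CPM at PND21. The highest CTR sum, 509 CPM, was that of replicate 5, and without it they reached 317 CPM. Of the T and B cell genes 1 of 4 was called higher in GLLP (3.69 to 7.35 CPM at PND540, 1.74 to 3.25 CPM at PND21) and 3 of 5 in CTR (4.12 to 15.2 CPM at PND540, 2.44 to 2.79 CPM at PND21). Of 6 adipocyte genes, 5 were called higher in GLLP (118 to 311 CPM at PND540, 17.9 to 79.5 CPM at PND21). In CTR 1 of the 6 was called, and the sums overlapped (5.24 to 291 CPM at PND540, 29.4 to 90.6 CPM at PND21). Over all genes 19.1% were called higher and 17.1% lower in GLLP, and 17.3% and 13.2% in CTR. Higher calls among myeloid genes in GLLP, and among adipocyte and skeletal muscle genes in CTR, did not exceed these shares. Neither did higher calls among fibroblast genes, or lower calls among luminal genes, in either diet. The lower call among skeletal muscle genes in CTR was near its share. Luminal epithelial genes split, with 2 of 8 called higher and 1 lower in each diet. The keratin Krt8 was higher and the secretory gene Pbsn lower in both, and the list summed to 6300 to 13400 CPM in GLLP at PND540 and 11300 to 13800 CPM at PND21, and to 5720 to 14000 CPM in CTR at PND540 and 15200 to 18200 CPM at PND21. The gene with the largest mean in that list, Scgb2a1, was called in neither diet (-0.9 and -1.32, edgeR adjusted p = 0.161 and 0.124). Of the 8 luminal genes 5 had positive values in GLLP and 6 in CTR. Without CTR replicate 5, when 26% of 13427 genes were called higher and 23% lower in CTR, smooth muscle had 8 of 8 genes lower and fibroblasts 4 of 7, myeloid cells had 6 of 7 higher, T and B cells 3 of 5, and the luminal list 4 of 8 higher and 1 lower. Platelets also make Vwf and Pecam1: their 7 genes summed to 3.99 to 6.58 CPM in GLLP and 5.16 to 10.9 CPM in CTR at PND540, against 8.89 to 12.6 CPM and 6.9 to 9.22 CPM at PND21, and Ppbp and Gp1bb were at 0 in every library. Apart from these platelet genes and Gp5, which was at 0 at PND21, no gene with a row on the cell type lists was at 0 throughout a group.

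At PND21 none of the 9 endothelial genes passed the test for diet, and 7 had positive values. Across all genes 1.11% of 14915 were called. From here on CPM values are scaled within an age. Plvap, the fenestral diaphragm protein, had the smallest p. It measured 31.6, 40.8 and 40.9 CPM in GLLP libraries and 24.4, 30, 23 and 26.1 CPM in CTR libraries. Every GLLP library was higher than every CTR library, which was true of 9.49% of all tested genes and of none of the other 8 endothelial genes. Its log2 fold change was 0.55 (SE 0.13, edgeR adjusted p = 0.0861). DESeq2 called it (adjusted p = 0.0101), as did edgeR with library size alone (0.69, adjusted p = 0.033) and edgeR without GLLP replicate 2 (0.66, adjusted p = 0.0175). No other setting tried, and no other left-out library, gave a call. These fits also called more of all genes higher: 671, 625 and 795 in that order, against 150 in the main fit. With library size alone the median log2 fold change over all genes was 0.14.

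Kdr was at 17.9, 18.4 and 12.2 CPM in GLLP and 12.2, 12.8, 10.7 and 15.3 CPM in CTR. GLLP replicates 2 and 3 lay above the CTR range and replicate 4 within it (log2 fold change 0.35, SE 0.18, edgeR adjusted p = 0.316). Emcn was at 10.3, 11.6 and 8.56 CPM in GLLP and 7.53, 9.05, 7.96 and 7.82 CPM in CTR (0.32, SE 0.15, adjusted p = 0.268). Tie1 was at 39.8, 40.1 and 34.6 CPM in GLLP and 34, 34.7, 30.6 and 32.7 CPM in CTR (0.21, SE 0.1, adjusted p = 0.268). In Kdr, Emcn and Tie1 GLLP replicate 4 lay inside the CTR range, and the groups overlapped. The other 5 genes had log2 fold changes between -0.14 (Flt1) and 0.17 (Tek), and the median of the 9 was 0.17, beside 0 over all genes tested. Flt1 counts per Kdr count were 0.661, 0.786 and 0.794 in GLLP and 0.95, 1.18, 1.13 and 0.937 in CTR. This ratio was chosen after its values were seen, and its groups did not overlap.

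Markers of muscle and of luminal epithelium also stood apart between the same groups. Skeletal muscle genes, 8 of 10 of which the PND21 table lists, summed to 419 to 658 CPM in GLLP and 32.7 to 49 CPM in CTR, and all 8 were called higher. Luminal epithelial genes summed to 10200 to 12400 CPM in GLLP and 13700 to 16300 CPM in CTR, so that every GLLP sum was below every CTR sum, with 0 of 8 genes called. Most of that sum is Scgb2a1, a secretoglobin (log2 fold change -0.59, SE 0.15, edgeR adjusted p = 0.0907), and both it and Krt8 (-0.33, adjusted p = 0.197) had lower values in every GLLP library. Fibroblast genes summed to 5160 to 6490 CPM in GLLP and 3610 to 5330 CPM in CTR, with 0 of 6 tested genes called. None of these genes with a row was at 0 throughout either group. Their part in the endothelial values was not tested.

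At PND540 the test for diet called none of the 10 endothelial genes and none of 14767 genes in all (0%). The smallest adjusted p by edgeR was 0.914, 123 genes had an unadjusted p under 0.05, and DESeq2 called 2 genes, neither of them endothelial. All 10 endothelial genes had positive values, with a median log2 fold change of 0.41, beside 0 over all genes tested, and in all 10 the groups overlapped. This was not particular to them. All 7 fibroblast genes (median 0.72), 6 adipocyte genes (0.89) and 5 Schwann cell genes (0.46) were positive too. All tested basal epithelial, T and B cell, platelet and erythroid genes were negative, and the other cell lists were mixed. The part of cell makeup was not tested. Pecam1, which could be read at this age alone, measured 15.3, 8.13, 16.1 and 17.8 CPM in GLLP and 7.91, 11.2, 15.4, 10 and 18.3 CPM in CTR (0.19, SE 0.32). Among the genes with the higher counts, Plvap averaged 19.9 ± 10.1 CPM in GLLP and 14 ± 7.9 CPM in CTR, and Vwf 19.7 ± 6.99 CPM in GLLP and 16.3 ± 6.93 CPM in CTR (SD, n = 4 and 5). Eng averaged 17.2 ± 7.1 CPM in GLLP and 12.8 ± 5.38 CPM in CTR, and Tie1 14 ± 4.14 CPM in GLLP and 10.5 ± 3.84 CPM in CTR. In each of these genes the lowest GLLP library was replicate 2, and it lay within the CTR range for Vwf and Tie1 and below it for Eng and Plvap. The log2 fold changes were 0.79 (SE 0.74) for Tek and 0.75 (SE 0.75) for Cdh5. Without CTR replicate 5 these came to 0.48 and 0.44, and none of the 10 genes was called. With any 1 library left out, the 10 values stayed positive, from 0.07 (Pecam1) to 1.2 (Tek). The biological coefficient of variation, the fitted spread between libraries of a group, was 46.2% at PND540 and 34.1% there without CTR replicate 5, against 19.6% at PND21.

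The genes tended to be low in the same libraries. The 9 genes that both tables list summed to 128, 48.2, 121 and 121 CPM in GLLP libraries at PND540 and to 41.7, 98.2, 112, 65.4 and 66.8 CPM in CTR libraries. GLLP replicate 2 and CTR replicate 1 lay below the median of the 9 libraries for all 9 genes, and GLLP replicates 1, 3 and 4 lay below it for none. In GLLP replicate 2, Plvap was at 0.292 of its median and Tek at 0.729. In CTR replicate 1, Tie1 was at 0.334 of its median and Kdr at 0.692. These 2 libraries also had the lowest smooth muscle sums of their groups (573 and 492 CPM) and the lowest fibroblast sums (138 and 63 CPM), whose part was not tested. At PND21 the sums ran from 207 to 228 CPM in GLLP and from 171 to 203 CPM in CTR.

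**Figure D4:**
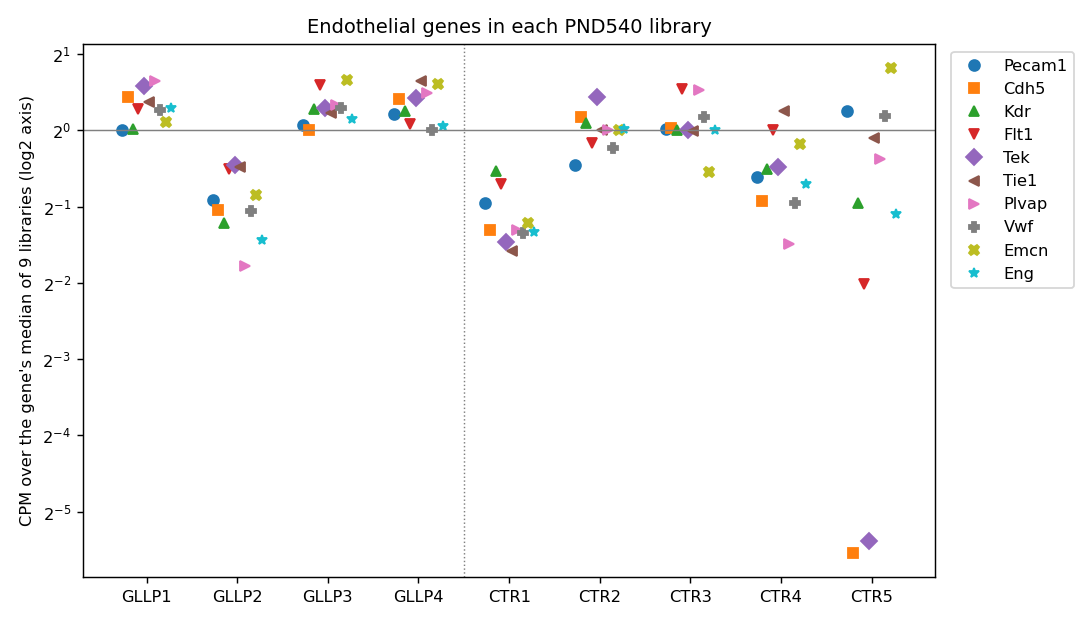
CPM of each of the 10 genes in each PND540 library, divided by the median of that gene over the 9 libraries, on a log2 axis, with GLLP left of CTR. The genes of GLLP replicate 2 and CTR replicate 1 lie low together, while those of CTR replicate 5 run from 0.0215 for Cdh5 to 1.76 for Emcn.

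Pearson correlations between pairs of the genes on log2 CPM had a median of 0.83 (range 0.57 to 0.95, 45 pairs) over the 8 PND540 libraries other than CTR replicate 5. With that library the median was 0.63 (-0.18 to 0.99), and over the 7 PND21 libraries it was 0.32 (-0.73 to 0.89, 36 pairs). The libraries of a pair share their depth, scaling and cell makeup, so these values describe the libraries. By the mean of the endothelial genes, each centred, the genes most alike in both ages among 12241 were Foxf1, Ldb3, Chsy1, Lrrn4cl, Plcl1 and Epdr1. Their Pearson r was 0.83 to 0.97 over 7 PND21 libraries and 0.85 to 0.9 over 9 PND540 libraries. Without CTR replicate 5, 3 of the 6 stayed in the first 6 (Plcl1, Lrrn4cl and Ldb3), and none of the 6 is on a vascular list used here.

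In CTR replicate 5 the endothelial genes split. Cdh5 (0.172 CPM, others from 3.22 CPM), Tek (0.137 CPM, others from 2.08 CPM) and Flt1 (2.23 CPM, others from 5.51 CPM) lay below the other 8 libraries. Pecam1 (18.3 CPM) and Emcn (5.57 CPM) lay above them, and the other 5 lay within, so that 50% were outside, against 70.7% of all tested genes. Of 94 tested genes on the vascular lists, 30 lay below and 25 above. The hypoxia-inducible factor Epas1 was at 0.55 CPM, against 31.1 to 48.7 CPM in the others, and the arterial ligand Efnb2 at 0.103 CPM, against 2.37 to 22.3 CPM. These 2 were chosen after their values were seen.

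The diet difference did not pass the test of dependence on age for any of the 9 genes, whose edgeR adjusted p ran from 0.764 to 1. Over all genes 0.0917% of 14178 were called. The interaction, which is the log2 fold change of GLLP over CTR at PND540 less that at PND21, was 0.63 for Cdh5 (SE 0.89), 0.55 for Flt1 (SE 0.56) and between -0.07 and 0.62 for the other 7.

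Other vascular genes, 97 on 10 lists, showed both directions between the ages. In GLLP offspring 33 of 93 tested were called lower at PND540 and 8 higher, with a median log2 fold change of -0.64. In CTR offspring 26 of 94 were called lower and 8 higher, with a median of -0.69. Beside them stand 17.1% called lower and 19.1% called higher of all genes in GLLP, and 13.2% and 17.3% in CTR. When CTR replicate 5 was left out, the CTR counts were 44 lower and 11 higher of 94, which included all 34 of the calls made with it, and the median was -0.64, beside 23% lower and 26% higher over all genes.

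Here CPM values are scaled over the libraries of the comparison. Pericytes, the cells that wrap capillaries, had 8 of 10 genes called lower in GLLP and 6 of 10 in CTR (9 of 10 without CTR replicate 5), and none higher. Cspg4 (NG2) averaged 6.37 ± 2.89 CPM in GLLP at PND540 and 31.4 ± 4.16 CPM at PND21 (SD, n = 4 and 3), which is -2.3 on the log2 scale (SE 0.38, edgeR adjusted p = 0.00173). Rgs5, a regulator of G-protein signalling, averaged 1.33 ± 0.846 CPM in CTR at PND540 and 10.4 ± 0.644 CPM at PND21 (SD, n = 5 and 4), which is -2.96 on the log2 scale (SE 0.48, adjusted p = 0.00126). Pdgfrb, the receptor by which pericytes are recruited, had -2.04 in GLLP and -1.47 in CTR, both called.

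The ligands of the VEGF system moved in both directions. Vegfc, a lymphatic growth factor, had log2 fold changes of -1.82 in GLLP and -1.81 in CTR (edgeR adjusted p = 0.0241 and 0.0249). Pgf, a Flt1 ligand, had -1.53 and -1.24, and the co-receptor Nrp2 -2.46 and -2.29, all called. Vegfb, another Flt1 ligand, averaged 17.8 ± 2.31 CPM in GLLP at PND540 and 10.7 ± 2.56 CPM at PND21, and was called higher in both diets (0.73 and 1.18). In CTR replicate 5 it was at 29.2 CPM, scaled within the age, and in the other 8 PND540 libraries at 10.2 to 16.6 CPM, and without that library the CTR value was 0.84 (adjusted p = 0.00307). Of the angiopoietins, Angpt2 was called lower in GLLP (-2.23, edgeR adjusted p = 0.00223), and in CTR without CTR replicate 5 (-1.4, edgeR adjusted p = 0.0118). Angpt4 was called higher in both (2.73 and 1.79), and Angpt1, the main Tek activator, higher in CTR (1.58, adjusted p = 0.0447). Angpt4 was scarce, at 2.69 ± 1.24 CPM in GLLP at PND540 and 0.406 ± 0.12 CPM at PND21.

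Of 18 tested genes for other endothelial surface and junction proteins, 9 were called lower and 1 higher in each diet. The apelin receptor Aplnr fell 5.67-fold in GLLP and 4.9-fold in CTR. The surface sialomucin Cd34 averaged 10 ± 4.32 CPM in GLLP at PND540 and 47.4 ± 5.31 CPM at PND21 (log2 fold change -2.24, edgeR adjusted p = 0.00157), and had -2.88 in CTR (adjusted p = 0.0054), or -2.61 without CTR replicate 5 (adjusted p = 0.000596). Nos3, endothelial nitric oxide synthase, had -1.49 in GLLP and -1.45 in CTR, both called. The higher gene was the tight junction gene Cldn5, which had 0 counts in all 7 PND21 libraries. Scaled over all 16 libraries, it averaged 8.39 ± 2.49 CPM in GLLP (SD, n = 4) and 13.7 ± 15.2 CPM in CTR (SD, n = 5) at PND540, at least 78-fold and 137-fold higher against a floor of 3 counts per library. The CTR value rests on replicate 5, at 40.6 CPM, and without it Cldn5 averaged 7.02 ± 2.83 CPM in CTR (SD, n = 4), at least 69.9-fold higher. Robo4, on the same list, was also at 0 in every PND21 library. A difference in annotation or counting and the age cannot be told apart in either gene. With Cldn5 at its bound the list medians were -0.96 in GLLP and -0.98 in CTR, as without it.

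The other lists held fewer calls. Of all genes tested, 17.1% were called lower and 19.1% higher in GLLP, and 13.2% and 17.3% in CTR. Without CTR replicate 5 the CTR shares were 23% lower and 26% higher. Among Notch and arterial genes 5 of 12 were called lower in GLLP and 2 of 12 in CTR (6 of 12 without CTR replicate 5), Notch4 (-1.72 and -1.25) and the connexin Gja4 (-1.56 and -1.25) in both. Of 11 endothelial transcription factors 2 were lower in GLLP, Sox7 and Klf2, and 3 in CTR, Sox7, Sox18 and Tal1 (5 without CTR replicate 5, with 1 higher). The venous receptor Ephb4 was lower in both (-1.68 and -1.01), as was the BMP receptor Acvrl1 (-1.61 and -1.19), while the BMP receptor Bmpr2 was higher in both (1.88 and 1.08). Each diet had 1 of 6 lymphatic genes lower, Pdpn in GLLP (-0.96) and Lyve1 in CTR (-1.94). Among 12 hypoxia genes 3 were higher in each diet, with the oxygen sensor Egln1 in both (1.13 and 0.92), and 2 were lower in GLLP, Epas1 (-0.96) and Car9 (-1.76). Without CTR replicate 5, 4 hypoxia genes were higher and 4 lower in CTR, with Epas1 among the lower (-1.46, edgeR adjusted p = 1.21e-05). With all libraries, lower calls among transcription factors, lymphatic and hypoxia genes in GLLP were near the share of all genes. So were those among Notch and arterial genes and lymphatic genes in CTR.

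**Figure D5:**
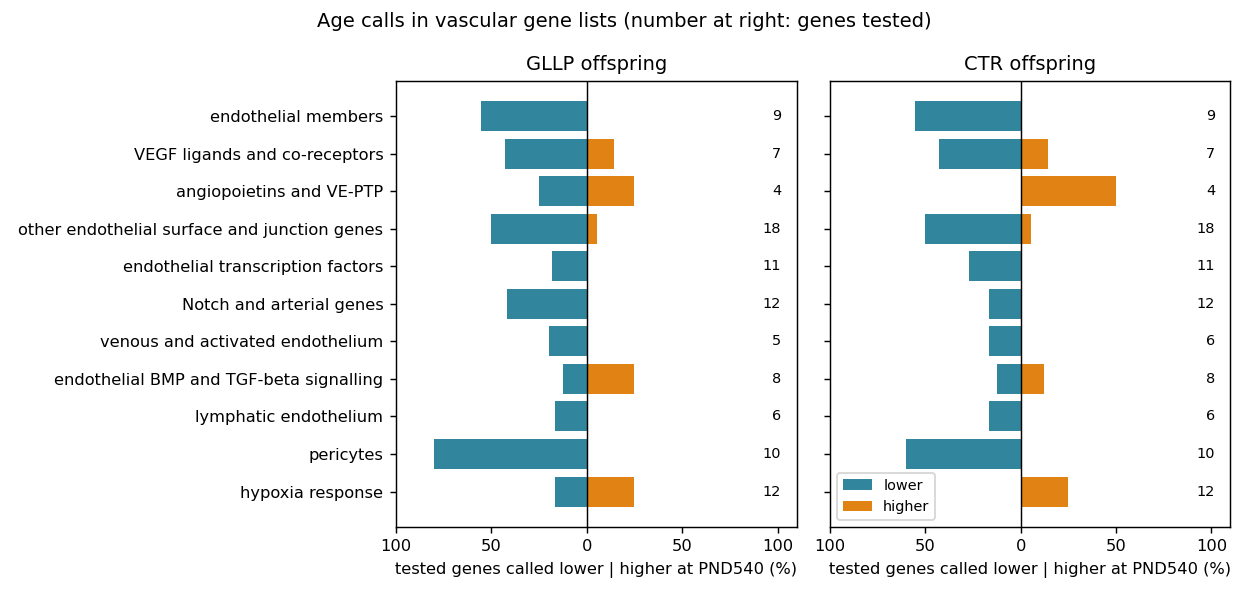
Percent of the tested genes of each vascular list called lower (left of 0) or higher (right of 0) at PND540 relative to PND21 in GLLP and CTR offspring, with the number tested at the right. Pericyte genes have the highest percent called lower (8 of 10 in GLLP, 6 of 10 in CTR). Higher calls are most frequent in CTR among angiopoietins (2 of 4) and hypoxia genes (3 of 12). In GLLP these lists (1 of 4 and 3 of 12) and the BMP and TGF-beta list (2 of 8) have equal shares. Over all genes 19.1% were called higher in GLLP and 17.3% in CTR.

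For diet, 1 of 94 tested vascular genes was called at PND21, a share near the 1.11% of all genes called there. Ephb4, which marks veins, averaged 62.6 ± 9.06 CPM in GLLP and 42.7 ± 1 CPM in CTR (SD, n = 3 and 4), which is 0.55 on the log2 scale (SE 0.11, edgeR adjusted p = 0.0485). The next smallest p on other lists belonged to Bnip3, a hypoxia-induced mitochondrial protein (-0.62, adjusted p = 0.0528), Pdgfrb (0.51, adjusted p = 0.0947) and Acvrl1 (0.49, adjusted p = 0.0948), none of which passed. At PND540 none of 94 was called. Thbd (thrombomodulin) had 0.97 (SE 0.44) and the ETS factor Erg 1.21 (SE 0.59), each with an adjusted p of 0.914. The interaction called none of 94 either, and the values nearest to a call in their lists included Bnip3 (0.97, SE 0.29) and Angpt2 (-1.13, SE 0.59), both with an adjusted p of 0.738.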

How the data were processed

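Raw read counts per gene were deposited by the authors in 2 tables, PND21 (7 libraries) and PND540 (9 libraries), in whole numbers without normalization. Per the submitters' processing notes, STAR, edgeR 3.34.0 and the build Rnor_6.0 were used, in roles they do not state. No source used here gives the counting tool, the annotation or the strand setting, so reads from overlapping antisense genes cannot be told apart. Left out of the comparisons across ages and of the search for genes most alike were 25 date-like or repeated names at PND21. They were not removed from the diet test at PND21. Replicate pairs differed far beyond sampling noise (chi-square per degree of freedom 30.3 to 829), so none was counted as a duplicate.

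Each comparison was fitted across all genes with edgeR 4.0.16 in R 4.3.3 (filterByExpr, TMM, robust quasi-likelihood test, Benjamini-Hochberg over all tested genes, threshold 0.05). Diet was tested within an age, and age and the interaction on genes named in both tables. A list is described by its counts and median, with no test. Genes were compared within themselves and not with each other, since transcript lengths were not at hand. CPM values for correlations were on log2 with a prior count of 2.

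The 10 genes, the vascular and cell type lists and the tests were chosen with earlier results of these data known. Beyond the 10, up to 4 called genes of each vascular list by smallest p were to be named in each comparison, or the 1 with the smallest p where none was called, and the 6 genes most like the mean of the 10; part of these is printed. Alternatives were DESeq2 1.42.0, a filter at 1 CPM or none, RLE factors or no factors besides library size, a replicate block, and leaving out each library. The fits were tested on simulated data, and figures were drawn with matplotlib 3.10.9.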

Additional observations from a re-analysis of the deposited data

How the results depend on the processing

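No endothelial gene was called for diet at PND540 or for the interaction under any alternative, and the age calls in CTR stayed at 5 or 6 of 9. At PND21 Plvap made 1 call under library size alone, DESeq2 and without GLLP replicate 2 (range over left-out libraries 0 to 1). In GLLP the age calls were 7 with DESeq2 (Eng and Vwf added), 6 with library size alone, and 3 to 8 when a library was left out.

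Over all genes, the calls for diet at PND21 (166) were 650 with library size alone, 972 with DESeq2 and 62 to 1509 without 1 library. DESeq2 called 2 at PND540 and 46 for the interaction (13, or 7 to 16 without 1 library). The age calls in CTR (4117) were 3040 to 6574 and those in GLLP (4952) 3434 to 5239 without 1 library, 6574 without CTR replicate 5. With library size alone the median over all genes shifted to 0.14 for diet at PND21, -0.16 for age in GLLP, -0.05 for age in CTR and -0.1 for the interaction. With it 40.3% of the age calls in GLLP were higher, against 52.7% with TMM.

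Values near 0 changed sign. For diet at PND21 these were Flt1 (0) and Vwf (0.09) with library size alone and Eng without CTR replicate 3, and for age in GLLP Flt1 without GLLP replicate 2 at PND540. For the interaction Emcn was -0.03 with RLE, library size alone and DESeq2 and 0 with the 1 CPM filter. Over fits without 1 library the ranges were -0.02 to 0.16 for Eng, -0.33 to 0.01 for Flt1 in GLLP and, for the interaction, -0.19 to 0.31 for Emcn, -0.24 to 0.17 for Kdr, -0.24 to 0.29 for Plvap and -0.02 to 0.38 for Tie1. The cause was not tested.

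Same-numbered samples share only a number: their deviations correlated from -0.17 to 0.3. With a replicate block the endothelial calls were 0 for both diet tests and the interaction, 7 for age in GLLP and 6 for age in CTR. Over all genes the block gave 27 calls for diet at PND21, 0 for diet at PND540, 3814 for age in GLLP, 6012 for age in CTR and 11 for the interaction, and Plvap came to 0.03 in the interaction. No power was computed for the diet test at PND540, and genes with few counts, such as Angpt4, are the least certain.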
